A study of Mus musculus with 10 samples.

Results

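Genes of cholesterol synthesis, uptake, storage and efflux were followed in inguinal white adipose tissue (iWAT), the subcutaneous fat pad of the groin, in a study of a low-protein diet (LPD) fed to male mice or to their fathers. The members are 30 genes picked by name, 21 of synthesis and 9 of transport, out of 51826 genes listed in the RNA-seq files, of which 33120 have an exon length and can carry exon reads. All 30 were found, and all 30 passed the filter on low counts in both generations. The samples were 10 libraries, 1 per mouse, all from C57BL/6 males. In the F1 generation, 3 offspring of fathers fed control diet (F1 CD) and 3 offspring of fathers fed LPD (pLPD offspring, F1 LPD) were killed at 5 weeks of age, after eating CD themselves from weaning. In the F0 generation, 2 males fed CD and 2 males fed LPD since weaning were taken at 10–12 weeks of age. The colony was kept on CD beforehand, and the mothers of the offspring ate CD. The F1 mice of a group came from different mothers, whereas the labels do not tie any offspring to an F0 mouse measured here.

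Cells build cholesterol from acetyl-CoA by way of mevalonate, the isoprenoid farnesyl diphosphate, squalene and lanosterol. Transcription of nearly all enzymes of the pathway is driven by the sterol-regulated factor SREBP2 when membrane sterol is low, while the liver X receptors (LXRs), which bind oxysterols when sterol is plentiful, drive the exporters. Fat cells make little cholesterol compared with the liver, but they hold a large share of the body's free cholesterol at the surface of the lipid droplet, taken up mostly from lipoproteins and given back to high-density lipoprotein (HDL).

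Between 6351075 and 10044546 reads per library were counted on exons. Every F1 LPD library was smaller (6351075 to 7087511) than every F1 CD library (7351881 to 8971136). Mitochondrial rRNA held 9.29% to 10.5% of the reads on genes in F1 CD and 13.5% to 18.2% in F1 LPD. In F0 it held 9.59% to 9.85% in CD-fed and 10.9% to 12.4% in LPD-fed males. The part of depth and mitochondrial rRNA in the results below was not tested. Introns held 36.0% to 37.5% of the reads on protein-coding genes in F1 CD and 40.7% to 48.4% in F1 LPD, with the highest share in F1 LPD replicate 1, and 36.3% to 37.9% in the F0 mice. Adipocyte markers were abundant in every library: Fabp4, a fatty acid carrier of fat cells, stood at 4731 to 7576 counts per 1000000 (CPM), and 0 of 8 adipocyte markers passed the test between diets in either generation. Of 10 macrophage markers, 6 were lower in pLPD offspring, and their summed level was 799 to 941 CPM against 1149 to 1436 CPM in F1 CD, with Lyz2 as the most abundant. Of 7 skeletal muscle markers, 4 were lower in LPD-fed F0 males, with sums of 667 to 921 CPM against 1322 to 1974 CPM in CD-fed males, and sums of only 37.8 to 155 CPM in F1. Epithelial keratin genes were few in reads, and 2 of 4 tested epithelial markers were lower in pLPD offspring (sums of 1.54 to 4.96 CPM against 10.5 to 14.9 CPM), in which Krt5 was at 0 in every mouse. None of 8 lymphocyte, 6 endothelial or 5 Schwann cell markers passed the test in F1 (0 of each), while 1 lymphocyte marker was higher and 1 Schwann cell marker lower in LPD-fed F0 males. Over all tested genes, 1.02% were called lower and 0.142% higher in F1, and 1.32% lower and 1.18% higher in F0. In bulk tissue, fewer cells of a type and less RNA per cell cannot be told apart. The part of these marker shifts in the results below was not tested.

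In the offspring of CD fathers, the most abundant synthesis transcripts per exon length were those of the first steps. Hmgcs1, which makes HMG-CoA, stood at 39.3 RPKM (reads per 1000 bases of exon and 1000000 reads, as the group mean). Acat2, the cytosolic enzyme that supplies it with acetoacetyl-CoA, stood at 39.2 RPKM, and Acat1, the mitochondrial acetoacetyl-CoA enzyme that also serves ketone and isoleucine breakdown, at 32.4 RPKM, and the mice of Hmgcs1 overlapped those of both, while every mouse had more Acat2 than any had Acat1. Sc5d, a sterol desaturase near the end of the pathway, followed with 22.7 RPKM and Pmvk, phosphomevalonate kinase, with 17.1 RPKM, again with overlapping mice. At the lower end lay Msmo1 with 1.54, Hsd17b7 with 1.47 and Tm7sf2 with 1.45 RPKM, 3 enzymes that trim or reduce the sterol after lanosterol, whose mice overlapped one another. Among the transport genes, Npc2, which carries cholesterol inside lysosomes, led with 33.7 RPKM and the exporter Abca1 followed with 26.9 RPKM. Abcg1, which passes sterol to HDL, stood at 9.64, Nr1h2, the gene of LXRβ, at 8.47, and Mylip, a ubiquitin ligase that sends lipoprotein receptors for degradation, at 8.43 RPKM, with overlapping mice. The HDL receptor gene Scarb1 (7.81 RPKM) came next, within the spread of Mylip, followed by Npc1 of the lysosomal membrane (2.47), the sterol carrier Stard4 (1.74) and Soat1, which esterifies cholesterol for storage (1.62), with Stard4 and Soat1 overlapping.

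**Figure D1:**
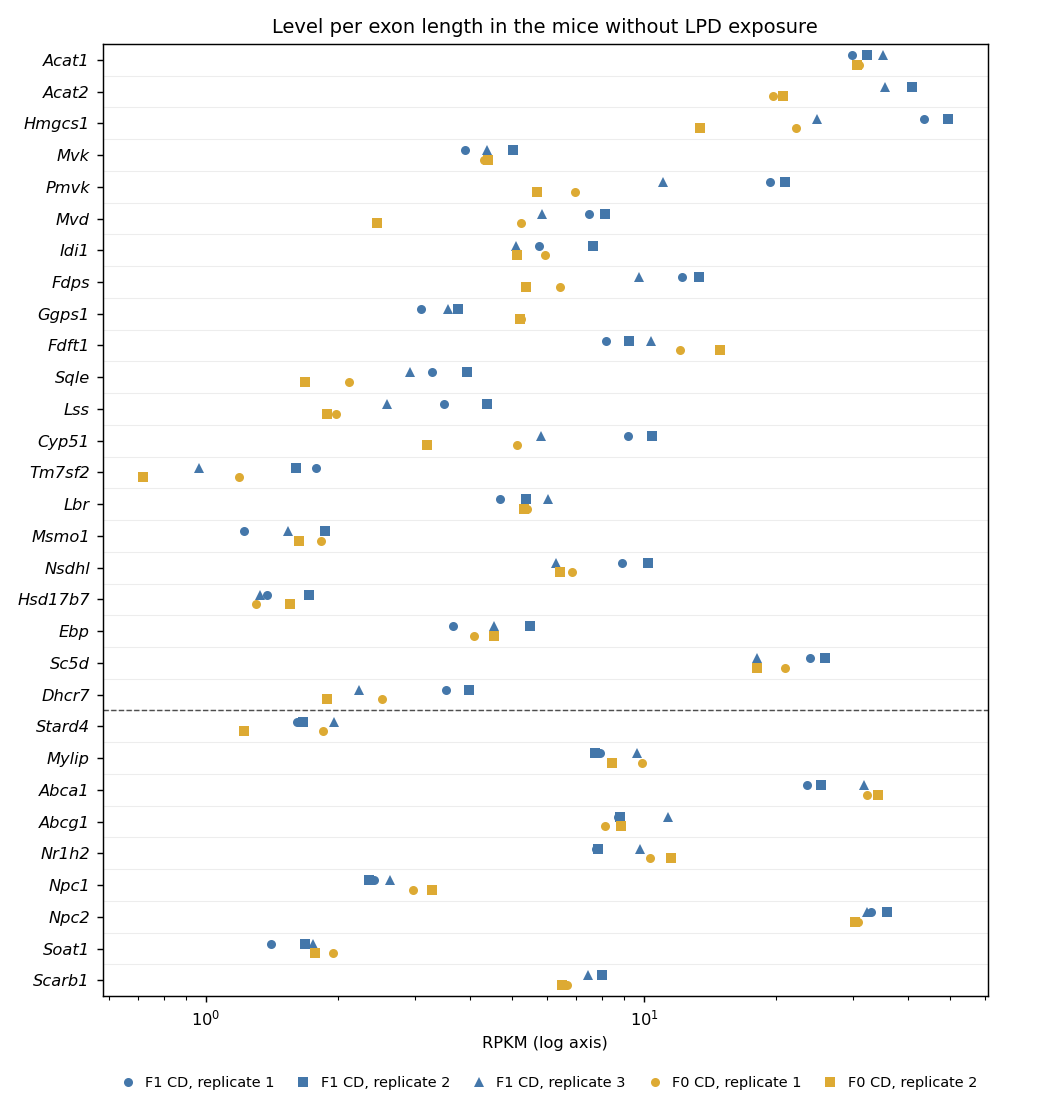
Expression of the 30 genes in RPKM (log axis) in each mouse fathered by a CD-fed male (F1 CD, blue, 3 mice) or fed CD itself (F0 CD, yellow, 2 mice), with synthesis genes above the dashed line and transport genes below it. Acat2, Hmgcs1, Pmvk, Mvd, Fdps, Sqle, Lss and Cyp51 lie further right in every F1 CD mouse than in both F0 CD mice.

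The control mice of both ages, 5 weeks in F1 CD and 10–12 weeks in F0 CD, were compared next. Of the 21 synthesis genes, 9 were higher in F1 CD and 1 was lower, against 10.1% and 8.78% of all 15111 genes tested in that direction, and the median log2 fold change (log2FC) was 0.49 against 0.01 over all genes. At an unadjusted p under 0.05, 12 were higher and 2 lower, against 17.2% and 15.6% of all genes. Pmvk showed the largest difference, with 61.3 ± 20.3 (SD, n = 3) CPM in F1 CD and 20.6 ± 3.15 (SD, n = 2) CPM in F0 CD (log2FC 1.58, standard error 0.27, adjusted p = 0.00139). Hmgcs1 stood at 265 ± 91.3 (SD, n = 3) against 109.6 ± 40.01 (SD, n = 2) CPM (log2FC 1.28, standard error 0.33, adjusted p = 0.0164), with every F1 CD mouse above both F0 CD mice. Cyp51, the lanosterol demethylase (1.17), Fdps, farnesyl diphosphate synthase (1.13), Acat2 (1.09), Mvd, mevalonate diphosphate decarboxylase (1.03), Lss, lanosterol synthase (0.98), Sqle, squalene epoxidase (0.96), and Dhcr7, a reductase at the end of the pathway (0.70), were the others that were higher, in log2FC. Ggps1, which leads into the side branch of protein prenylation, was the 1 lower gene (log2FC −0.46, standard error 0.10, adjusted p = 0.00719). Of the 9 transport genes, only Scarb1 passed, higher in F1 CD (log2FC 0.38, standard error 0.11, adjusted p = 0.0284), and the median was 0.00. Leaving out F0 CD replicate 2 left 4 synthesis genes past the threshold, all higher, and leaving out F1 CD replicate 3 gave 13, of which 12 were higher and 1 lower. Scarb1 was lost without F0 CD replicate 1, F0 CD replicate 2, F1 CD replicate 1 or F1 CD replicate 2, each left out alone, and 2 transport genes passed without F1 CD replicate 3. Age, generation and the set of libraries coincide here and cannot be told apart, and cell type markers differed between these groups as well. Lower in F1 CD were 7 of 7 muscle markers (median log2FC −3.86) and 3 of 8 adipocyte markers (median −0.43), and higher were 3 of 6 endothelial (median 0.63), 2 of 4 tested epithelial (median 1.89) and 1 of 5 Schwann cell markers (median −0.08), with 0 of 10 macrophage and 0 of 8 lymphocyte markers called. Their part in the result was not tested.

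In the first diet comparison, offspring of LPD-fed fathers were set against offspring of CD-fed fathers. Expression of the synthesis enzymes was lower in pLPD offspring for 3 of 21 genes past an adjusted p of 0.05, Mvd, Fdps and Sqle, and higher for 0 of 21, where 1.02% of all 14049 tested genes were called lower and 0.142% higher. Of the 21, 18 had a negative log2FC, the median was −0.35 against 0.01 over all genes, and 8 were lower and 0 higher at an unadjusted p under 0.05 against 8.76% and 6.57% of all genes. In 5 of the 21, all pLPD offspring lay below all F1 CD mice, which was so for 10.3% of all genes, and in 1 all lay above (9.78%). These counts hung on single mice. Without F1 CD replicate 3, 9 synthesis genes passed, all lower, and without F1 LPD replicate 3, 2 passed. Without F1 CD replicate 1, F1 CD replicate 2, F1 LPD replicate 1 or F1 LPD replicate 2, each left out alone, 0 passed. Calls over all genes moved as well, from 144 lower and 20 higher in the main fit. Without F1 CD replicate 3 they were 370 and 140, and without F1 LPD replicate 3, 131 and 31. In the fits with 0 synthesis calls, in the order named, 17, 29, 44 and 20 genes were lower and 1, 2, 8 and 4 higher. The swing was thus not particular to the synthesis genes. With a covariate for the share of reads on exons, 0 synthesis genes passed and their median was −0.05. That share was lower in every pLPD mouse than in every F1 CD mouse, so the covariate largely coincides with the paternal diet. Over all 14049 genes this fit called only 10 lower and 1 higher. It cannot separate the share of exon reads from the diet.

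Mvd removes the last carboxyl group on the way to the isoprenoids (ENSMUSG00000006517, chromosome 8 from 122433601 to 122443422 on the minus strand, mm10). Its expression was 29.9, 31.4 and 21.8 CPM in the 3 F1 CD mice and 10.1, 15.3 and 16.04 CPM in the 3 pLPD offspring. Every pLPD mouse lay below every F1 CD mouse, and the means were 27.7 ± 5.19 (SD, n = 3) and 13.8 ± 3.22 (SD, n = 3) CPM (log2FC −1.002, standard error 0.19, adjusted p = 0.0371, edgeR's quasi-likelihood test). From 45.05% to 72.3% of its exon reads matched this gene alone, and on those reads the log2FC was −1.14 (adjusted p = 0.0245).

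Fdps joins the isoprenoid units to farnesyl diphosphate, the branch point to sterols and prenyl groups (ENSMUSG00000059743, chromosome 3 from 89093588 to 89101959 on the minus strand). The F1 CD mice had 54.7, 57.5 and 40.6 CPM and the pLPD offspring 24.9, 32.8 and 32.2 CPM. The groups did not overlap, with means of 50.9 ± 9.06 (SD, n = 3) and 29.97 ± 4.42 (SD, n = 3) CPM (log2FC −0.76, standard error 0.15, adjusted p = 0.0412). Only 20.8% to 30.1% of its exon reads were unique, and with those reads alone its log2FC of −0.71 did not pass (adjusted p = 0.108). Its annotated exons share 26.7% of their bases with Gm43738 on the same strand, so its value is uncertain.

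Sqle inserts oxygen into squalene and is one of the slow steps of the pathway (ENSMUSG00000022351, chromosome 15 from 59315077 to 59331192 on the plus strand). It stood at 39.1, 45.4 and 32.5 CPM in F1 CD and at 17.2, 23.4 and 26.8 CPM in pLPD offspring. All pLPD mice were again below all F1 CD mice, and 100% of its exon reads were unique. The means were 38.99 ± 6.45 (SD, n = 3) and 22.5 ± 4.86 (SD, n = 3) CPM (log2FC −0.80, standard error 0.17, adjusted p = 0.049).

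The next synthesis genes by p, Lss and Cyp51, missed the threshold. Lss, which closes squalene epoxide into the first sterol (ENSMUSG00000033105, chromosome 10 from 76531588 to 76557138 on the plus strand), stood at 81.2, 97.8 and 55.9 CPM in F1 CD and 40.5, 46.9 and 49.97 CPM in pLPD offspring. F1 CD replicate 3 lay near the pLPD mice, although still above them (log2FC −0.78, standard error 0.17, adjusted p = 0.057). From 44.9% to 60.7% of the reads of Lss were unique, and on them its log2FC of −0.89 passed (adjusted p = 0.0412). Cyp51 (ENSMUSG00000001467, chromosome 5 from 4081145 to 4104746 on the minus strand) gave 87.2, 95.4 and 51.6 CPM in F1 CD and 31.9, 42.3 and 52.6 CPM in pLPD offspring, so that the lowest F1 CD mouse and the highest pLPD mouse crossed by a small margin (log2FC −0.89, standard error 0.22, adjusted p = 0.0762). Acat2 (log2FC −0.53, adjusted p = 0.104) and Pmvk (log2FC −0.83, adjusted p = 0.108) did not pass, the former with all pLPD mice below all F1 CD mice, nor did Tm7sf2 (log2FC −0.60, adjusted p = 0.363), whose exons overlap Vps51 on the same strand over 12.1% of their bases, and Sc5d (log2FC −0.49, adjusted p = 0.187). For Acat2, 53.3% to 71.3% of the reads were unique.

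The enzymes did not share 1 size of change. Hmgcs1 stood at 304, 330.5 and 161 CPM in F1 CD and 324, 197 and 210.0 CPM in pLPD offspring, a wide and overlapping spread (log2FC −0.12, standard error 0.24, adjusted p = 0.862). Mvk, mevalonate kinase (−0.10), Fdft1, squalene synthase (−0.06), Msmo1 (−0.12), Hsd17b7 (−0.13) and the sterol isomerase Ebp (−0.16) had log2FC near 0, and Idi1, isopentenyl diphosphate isomerase (−0.29), Nsdhl, a sterol dehydrogenase (−0.35), and Dhcr7 (−0.39) lay between. The 3 genes with a positive log2FC were Acat1 (0.13), Ggps1 (0.11) and Lbr (0.20), a sterol reductase that also anchors chromatin at the nuclear envelope, and none of these passed. F1 CD replicate 3 was the lowest of the 3 F1 CD mice in 14 of 21 synthesis genes, and F1 CD replicate 2 the highest in 16. Among pLPD offspring, replicate 1, the library with the largest intron share, was the lowest in 15 of 21. The summed expression of the 21 genes was 1347 to 1863 CPM in F1 CD and 1308 to 1420 CPM in pLPD offspring, so that F1 CD replicate 3 lay within the pLPD range.

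**Figure D2:**
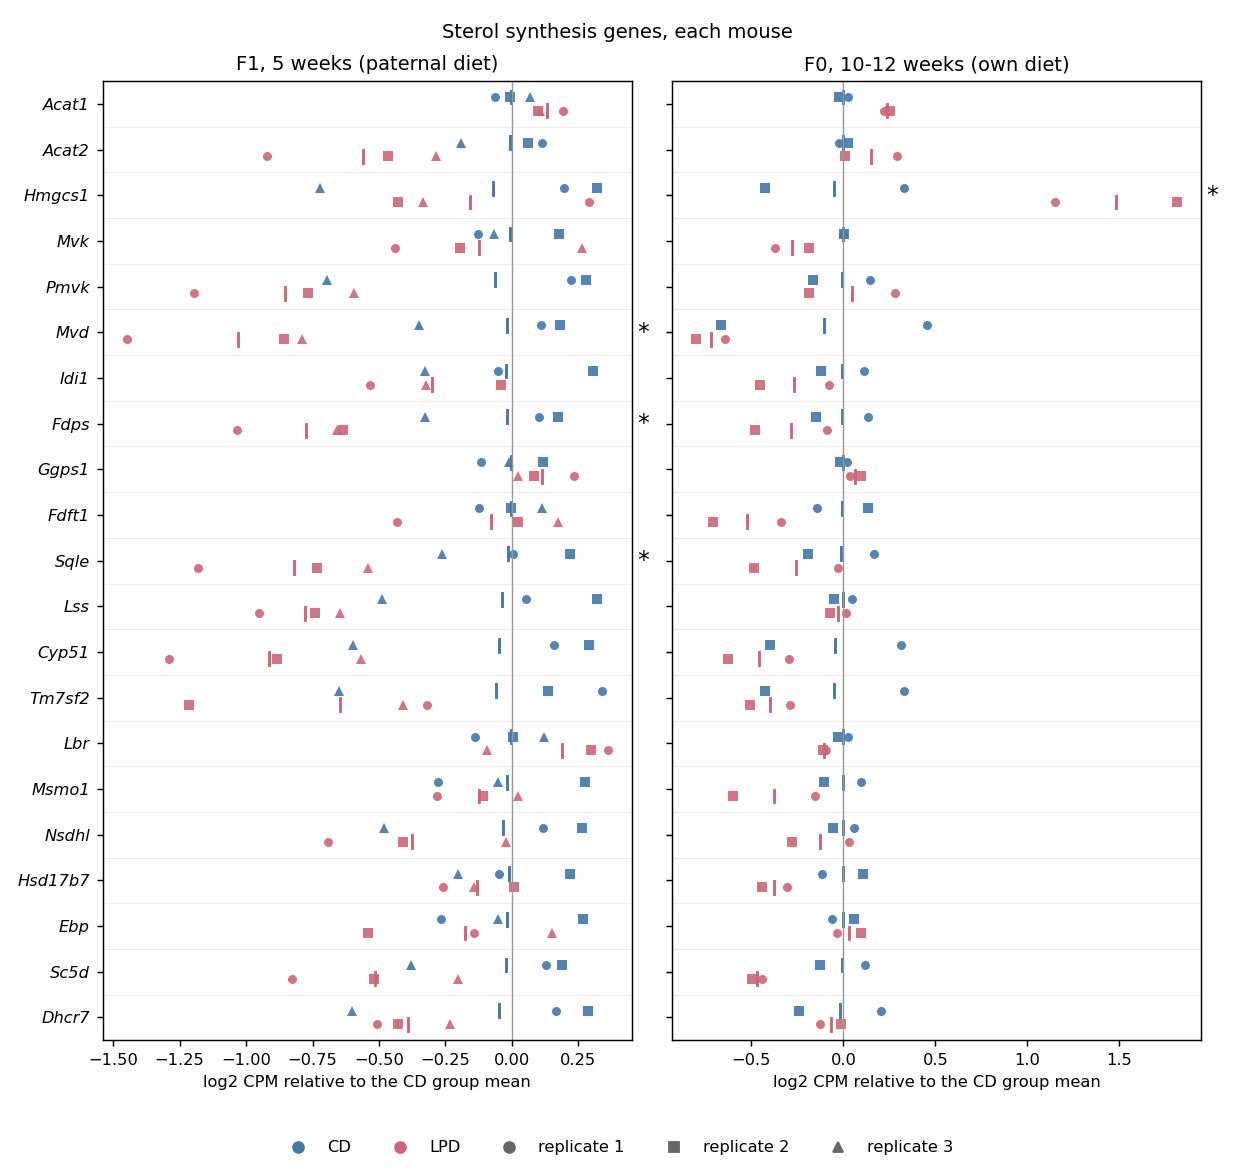
Exon reads of the 21 synthesis genes in pathway order, as log2 CPM relative to the CD group mean of that generation, for F1 (left, 3 mice a group) and F0 (right, 2 mice a group). Blue points are CD mice, red points LPD mice, vertical bars the group means, and asterisks mark an adjusted p under 0.05: Mvd, Fdps and Sqle on the left, where all red points lie to the left of all blue points, and Hmgcs1 on the right.

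Of the transport genes, 0 of 9 passed the threshold in F1, and the median log2FC was 0.01. Over all tested genes, 1.02% were called lower and 0.142% higher. At an unadjusted p under 0.05, 1 was lower and 1 higher by edgeR, against 8.76% and 6.57% of all genes. In 1 of the 9 all pLPD offspring lay below all F1 CD mice (10.3% of all genes), and in 1 all lay above (9.78%). The member with the smallest p was Npc2 (ENSMUSG00000021242, chromosome 12 from 84754562 to 84773152 on the minus strand), at 385, 403 and 353 CPM in F1 CD and 261, 292 and 317 CPM in pLPD offspring. Every pLPD mouse was below every F1 CD mouse, with means of 380.3 ± 25.7 (SD, n = 3) and 289.8 ± 28.3 (SD, n = 3) CPM, but the adjusted p was above the threshold (log2FC −0.39, standard error 0.10, adjusted p = 0.0827), which it passed without F1 CD replicate 3 (log2FC −0.44, adjusted p = 0.0379), by DESeq2 (adjusted p = 0.00998), with no filter on low counts (0.0117) and in the fit of all 4 groups (0.038). Its lysosomal partner Npc1 stood at 55.8, 52.2 and 56.5 CPM in F1 CD and 71.9, 62.98 and 66.2 CPM in pLPD offspring, here with all pLPD mice above, and did not pass either (log2FC 0.29, standard error 0.09, adjusted p = 0.16). Levels of the exporters overlapped between the paternal diets. Abca1 was at 577 ± 73.6 (SD, n = 3) CPM in F1 CD and 582 ± 25.6 (SD, n = 3) CPM in pLPD offspring (log2FC 0.01, standard error 0.11, adjusted p = 0.973), and Abcg1 at 81.1 ± 9.96 (SD, n = 3) and 84.8 ± 5.88 (SD, n = 3) CPM (log2FC 0.06, standard error 0.10, adjusted p = 0.825). Stard4 (−0.14), Scarb1 (−0.12), Soat1 (−0.05), Mylip (0.03) and Nr1h2 (0.12) likewise overlapped, in log2FC. Abca1 and Abcg1 are also strongly used by macrophages, whose marker sum was lower in pLPD offspring, as given above.

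In the second diet comparison, males that ate LPD were set against males that ate CD. Among the synthesis genes 1 of 21 passed, Hmgcs1, which was higher in LPD-fed males, and 0 were lower, where 1.18% of all 14581 tested genes were called higher and 1.32% lower. The median log2FC was −0.23 against 0.00 over all genes, with 15 of 21 negative. All LPD mice lay below all CD mice in 6 of the 21 (23.5% of all genes) and above in 3 (23.0%). At an unadjusted p under 0.05, 3 were lower and 2 higher, against 8.2% and 7.53% of all genes.

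Hmgcs1 (ENSMUSG00000093930, chromosome 13 from 119690462 to 119708086 on the plus strand) stood at 137 and 81.2 CPM in the 2 CD-fed males and 242 and 385 CPM in the 2 LPD-fed males. Both LPD mice lay above both CD mice, while the mice of each group also differed from each other. The means were 109 ± 39.7 (SD, n = 2) and 314 ± 101 (SD, n = 2) CPM, a ratio of 2.87 (log2FC 1.52, standard error 0.26, adjusted p = 0.0241). Without LPD replicate 2 the log2FC was 1.15 and did not pass (adjusted p = 0.0753), and DESeq2, the fit of all 4 groups and limma-trend on RPKM did not call it either. The 1 synthesis gene that DESeq2 called was Sc5d, which was lower (adjusted p = 0.0482). With 1 mouse left out in turn, which leaves 1 group with a single mouse, the log2FC was −1.17 to −0.05 for Mvd. For Fdft1 it was −0.71 to −0.34. The exons of Hmgcs1 overlap those of Gm48342 on the opposite strand over 12.1% of their bases.

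The synthesis genes next by p were lower or higher without passing. Sc5d (ENSMUSG00000032018, chromosome 9 from 42251595 to 42264256 on the minus strand) gave 195 and 165 CPM in CD-fed and 133 and 128 CPM in LPD-fed males, and Fdft1 (ENSMUSG00000021273, chromosome 14 from 63145153 to 63177793 on the minus strand) gave 65.9 and 79.9 CPM in CD-fed and 57.7 and 44.6 CPM in LPD-fed males. In both, each LPD mouse was below each CD mouse (log2FC −0.47, standard error 0.10, adjusted p = 0.0572 for Sc5d, and log2FC −0.51, standard error 0.14, adjusted p = 0.0994 for Fdft1). The exons of Fdft1 overlap those of Ctsb on the opposite strand over 18.3% of their bases. Acat1 (ENSMUSG00000032047, chromosome 9 from 53580522 to 53610382 on the minus strand) was the reverse, with 223 and 216 CPM in CD-fed and 256 and 262 CPM in LPD-fed males (log2FC 0.24, standard error 0.09, adjusted p = 0.242). Hsd17b7 (ENSMUSG00000026675, chromosome 1 from 169949535 to 169969241 on the minus strand) stood at 12.7 and 14.9 CPM in CD-fed and 11.1 and 10.1 CPM in LPD-fed males, lower in both LPD mice (log2FC −0.38, standard error 0.16, adjusted p = 0.311). The genes called in F1 had log2FC in F0 of −0.70 for Mvd (adjusted p = 0.342), −0.26 for Fdps (0.509) and −0.23 for Sqle (0.636). Mvd was called lower in F0 in 2 of 10 alternative settings, and Fdps and Sqle in 0. For Mvd the 2 CD-fed males were far apart, at 18.6 and 8.58 CPM, and the lower one lay between the LPD-fed males, at 8.72 and 7.80 CPM, while the unique reads of Fdps gave a log2FC of −0.03.

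Of the transport genes, 1 of 9 passed in F0, the HDL-loading exporter Abcg1, which was higher, and the median log2FC was 0.01. Over all tested genes, 1.18% were called higher and 1.32% lower. At an unadjusted p under 0.05 by edgeR, 1 was higher and 0 lower, against 7.53% and 8.2% of all genes. Both LPD mice lay above both CD mice in 3 of the 9 (23.0% of all genes) and below in 0 (23.5%). Abcg1 (ENSMUSG00000024030, chromosome 17 from 31057698 to 31115777 on the plus strand) stood at 63.3 and 67.5 CPM in CD-fed males and 118 and 153 CPM in LPD-fed males. The CD-fed males were close together and both LPD-fed males well above them. The means were 65.4 ± 2.97 (SD, n = 2) and 136 ± 24.8 (SD, n = 2) CPM, a ratio of 2.07 (log2FC 1.05, standard error 0.13, adjusted p = 0.00783), and the gene passed without each of the 4 mice in turn (log2FC 0.85 to 1.23). Abca1, the other exporter, did not pass in the same mice, at 640.0 and 664 CPM against 633 and 681 CPM (log2FC 0.01, standard error 0.11, adjusted p = 0.98), and its groups overlapped. Npc2 (0.20) and Soat1 (0.17) had both LPD mice above both CD mice without passing, and Stard4 (−0.47), Scarb1 (−0.05), Mylip (−0.05), Nr1h2 (−0.04) and Npc1 (0.06) overlapped. Macrophage markers were at 1066 to 1141 CPM in LPD-fed and 1165 to 1228 CPM in CD-fed males in sum, with 1 of 10 lower and 0 higher, whereas adipocyte markers summed to 19848 to 25931 CPM in LPD-fed and 18569 to 19214 CPM in CD-fed males. The part of either in the level of Abcg1 was not tested.

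**Figure D3:**
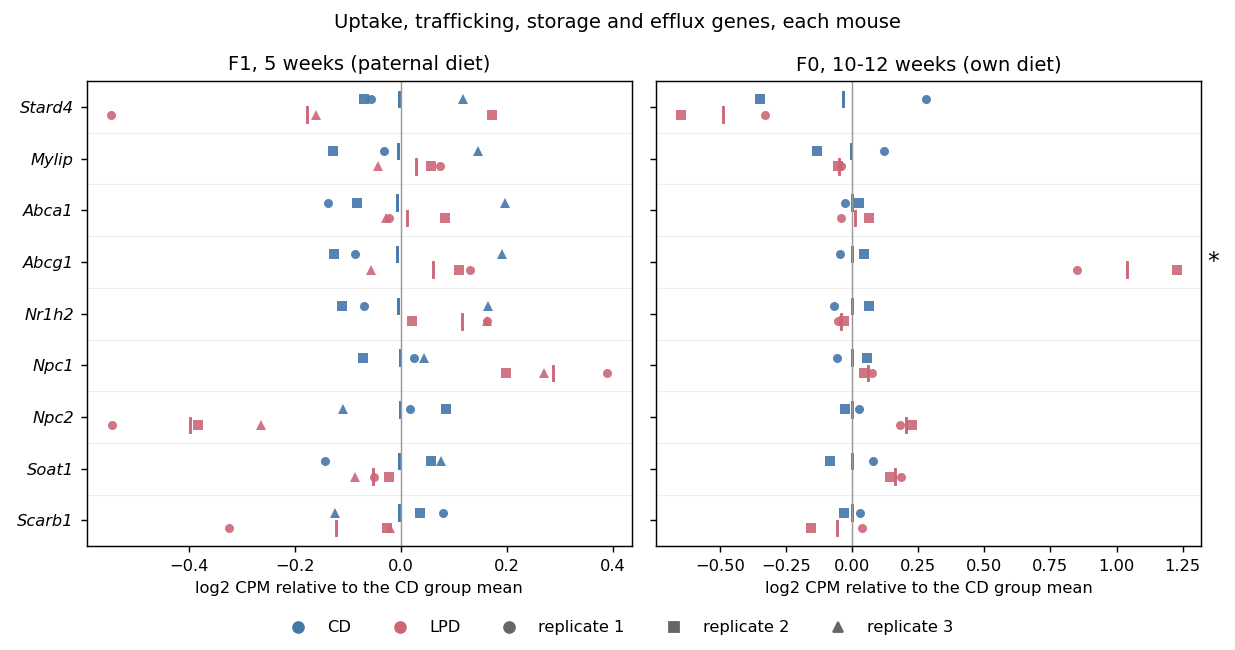
Exon reads of the 9 uptake, trafficking, storage and efflux genes, as log2 CPM relative to the CD group mean of that generation, for F1 (left) and F0 (right), with CD mice in blue, LPD mice in red, group means as vertical bars and an asterisk for an adjusted p under 0.05. Abcg1 in F0 is the 1 gene so marked, with both LPD-fed males to the right of both CD-fed males. The F1 groups of Npc1 (higher in F1 LPD) and Npc2 (lower) do not overlap, which held for 9.78% and 10.3% of all genes in those directions.

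Whether the effects of a father's and of an own LPD differed was tested with an interaction term in the fit of all 4 groups, which uses the same mice as both comparisons above. Abcg1 passed, with log2FC of 0.06 in F1 and 1.05 in F0 (difference −0.99, standard error 0.18, adjusted p = 0.0192). Over all 15111 genes, 0.893% had a smaller log2FC in F1 than in F0 past the threshold and 0.357% a larger one. A smaller one was found for 1 of 9 transport and 0 of 21 synthesis genes, and a larger one for 0 of both. At an unadjusted p under 0.05, 4 synthesis genes had a smaller log2FC in F1 and 0 a larger one, against 7.58% and 4.91% of all genes. Abcg1 was lost without F0 CD replicate 1, F0 CD replicate 2, F0 LPD replicate 2 or F1 LPD replicate 2, each left out alone (log2 differences over all 10 mice left out in turn of −1.17 to −0.79). Without F1 CD replicate 3 or F1 LPD replicate 3, each left out alone, 2 transport genes passed, and 3 synthesis genes passed without F1 CD replicate 3 and 1 without F1 LPD replicate 1. DESeq2 called 2 transport genes and 0 synthesis genes. Hmgcs1 had the largest difference of the 30 without passing (−0.12 in F1, 1.52 in F0, difference −1.65, adjusted p = 0.0973), and it passed without F1 CD replicate 3 or F1 LPD replicate 1 among the 10 fits that left out 1 mouse. Npc2 was next by p among the transport genes (−0.39 and 0.20, difference −0.60, adjusted p = 0.0602). For Mvd (difference −0.31), Fdps (−0.51) and Sqle (−0.57), which in the main fits passed in F1 alone, no difference between generations passed (adjusted p of 0.834, 0.438 and 0.439).

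**Figure D4:**
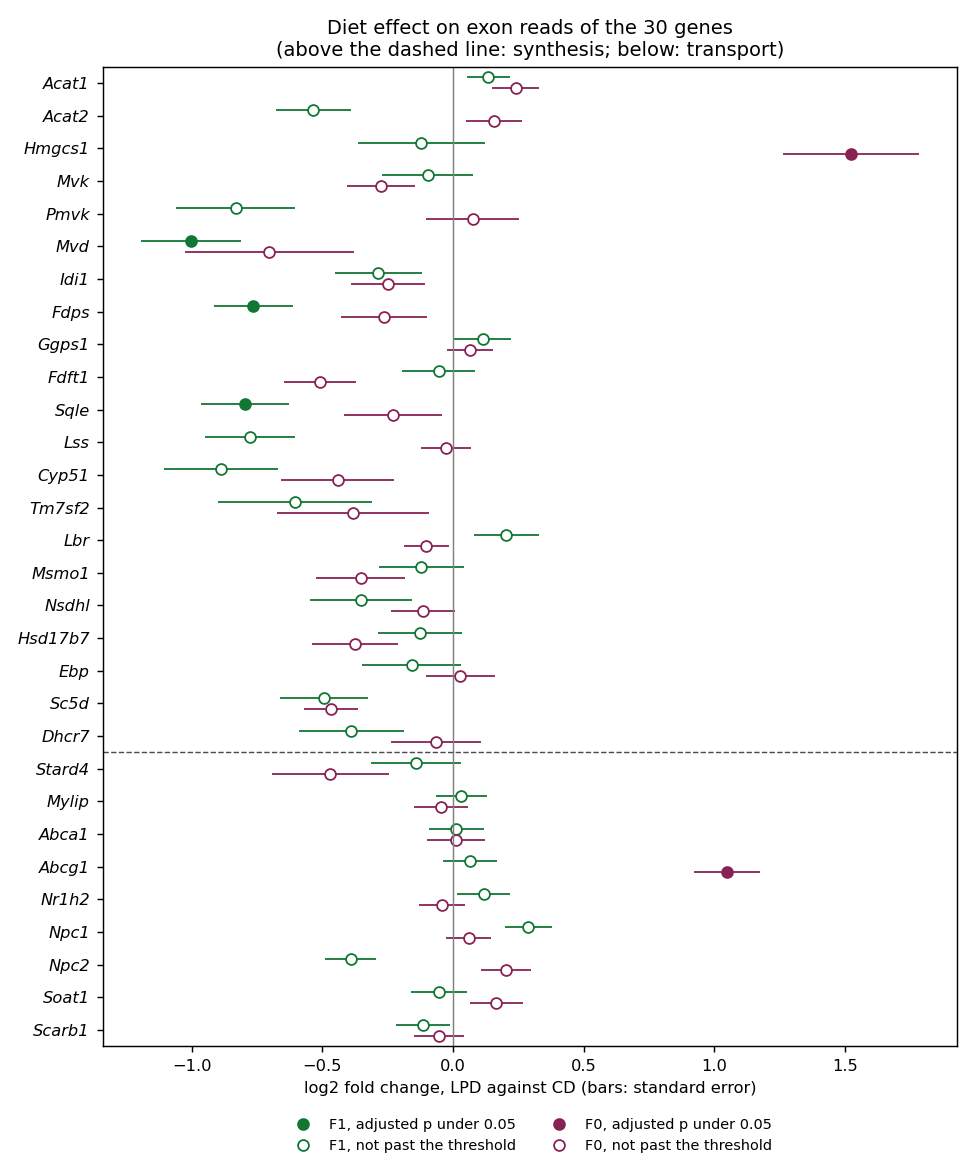
Log2 fold change of exon reads, LPD against CD, with its standard error as a bar, for the 30 genes in F1 (green) and F0 (purple); filled points passed an adjusted p of 0.05. Synthesis genes lie above the dashed line, where Mvd, Fdps and Sqle are filled in F1 and Hmgcs1 in F0, and below it only Abcg1 in F0 is filled.

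Reads on introns, which come mostly from RNA not yet spliced, were compared in the same mice as a second readout. In F1, 0 of the 20 tested synthesis genes and 0 of the 9 transport genes passed, where 0.261% of 13411 genes were called lower and 0.149% higher. At an unadjusted p under 0.05, 1 synthesis gene was lower, Nsdhl (log2FC −0.43, adjusted p = 0.307), and 0 transport genes differed, against 8.19% of all genes lower and 5.61% higher. The median of the synthesis genes was 0.05. Intron log2FC of the enzymes called on exons were −0.25 for Mvd (standard error 0.51), −0.31 for Fdps (0.29) and −0.30 for Sqle (0.24), with only 4 to 32, 18 to 35 and 28 to 70 intron reads per library. At such numbers a change of the size seen on exons could not be told from none for Mvd. For Fdps and Sqle the standard errors were also large beside the estimates, and neither an intron change nor its absence was shown.

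In F0, 3 of 20 tested synthesis genes and 1 of 9 transport genes passed on introns, where 2.14% of 14283 genes were called lower and 1.37% higher. At an unadjusted p under 0.05, 4 synthesis genes were lower and 3 higher and 2 transport genes lower and 1 higher, against 7.78% of all genes lower and 7.04% higher. Hmgcs1 again was the gene with the largest rise. Its introns gave 15.7 and 15.5 CPM of intron reads in CD-fed and 47.1 and 59.5 CPM in LPD-fed males (log2FC 1.77, standard error 0.15, adjusted p = 0.00036), and it passed with each mouse left out in turn. Acat2, the enzyme just before it, went the other way on introns, from 37.8 and 46.4 CPM to 20.997 and 20.7 CPM (log2FC −1.02, standard error 0.14, adjusted p = 0.00504), whereas its exon reads gave 95.6 and 98.96 CPM and 119 and 97.9 CPM (log2FC 0.16, standard error 0.11, adjusted p = 0.551). Acat1 was also lower on introns (log2FC −0.47, standard error 0.10, adjusted p = 0.03), while its exon log2FC was 0.24. Scarb1 was lower on introns (log2FC −0.49, standard error 0.10, adjusted p = 0.0255) with an exon log2FC of −0.05. Calls of Acat1 and Scarb1 on introns were lost without LPD replicate 1 or LPD replicate 2, each left out alone. Abcg1, the gene called on exons, had intron reads of 178 and 133 CPM in CD-fed and 212 and 230.4 CPM in LPD-fed males and missed the threshold (log2FC 0.51, standard error 0.13, adjusted p = 0.0634), which it passed without CD replicate 1 (log2FC 0.73, adjusted p = 1.19e-05).

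**Figure D5:**
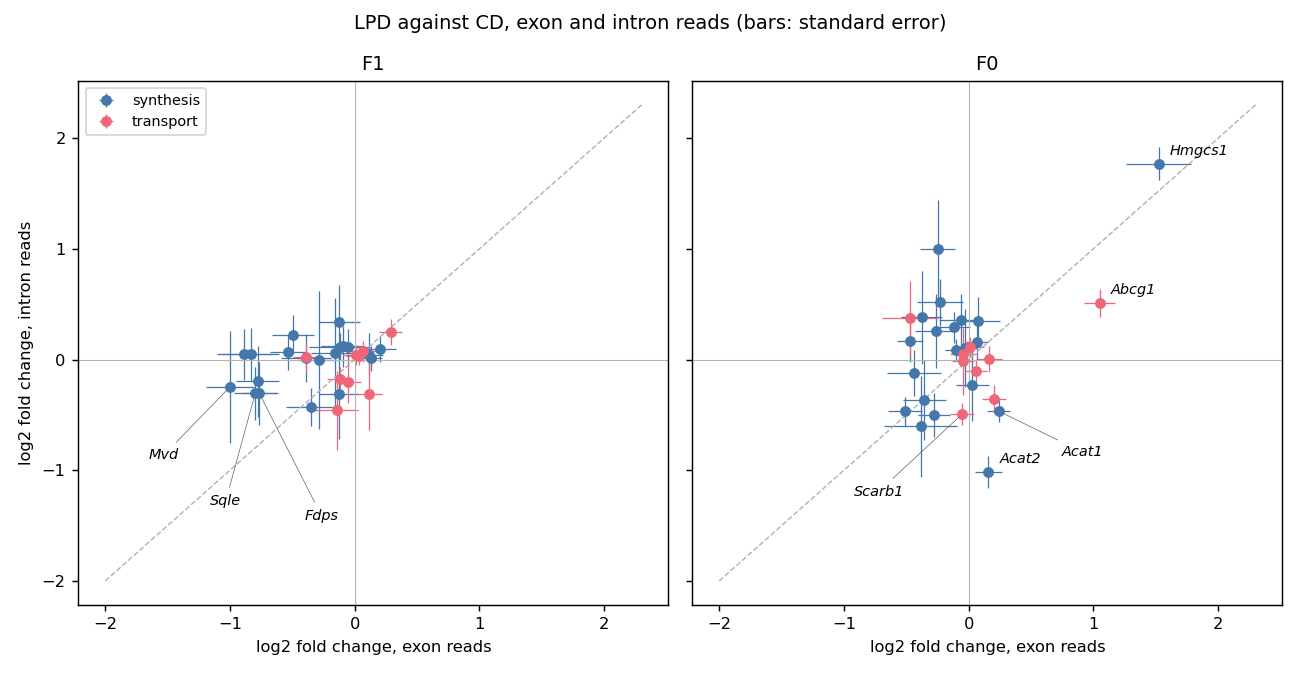
Log2 fold change, LPD against CD, on exon reads (x axis) and intron reads (y axis) with standard errors, for the synthesis genes (blue) and transport genes (red) tested on both, in F1 (left) and F0 (right); the dashed line marks equal changes, and genes with an adjusted p under 0.05 on either readout are named. In F1 the named genes lie to the left with intron values of −0.31 to −0.25, and in F0 Hmgcs1 lies near the dashed line, at 1.52 on exons and 1.77 on introns.

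For 4 enzymes, the 200 bases before the transcription start in RefSeq (GRCm38.p6) are shown, with the sterol regulatory element TCACNCCAC and the CCAAT box, on either strand, in capitals. The table of promoters held 22 of the 30 members, 17 of synthesis and 5 of transport, with 25 promoters in all. Fdps, Sqle and Abcg1, which passed in a diet comparison, were not among them, so their promoters were not searched. Hmgcs1 and Mvd are shown because they passed in a diet comparison, Pmvk for its difference between the CD groups and Sc5d as the next synthesis gene by p in F0. Pmvk has another annotated promoter, at chr3:89459321-89459620, which holds 0 matches to either element and is not shown. Hmgcs1 is at chr13:119690151-119690350 on the plus strand, Mvd at chr8:122443423-122443622 on the minus strand, Pmvk at chr3:89454341-89454540 on the plus strand and Sc5d at chr9:42264301-42264500 on the minus strand.
Hmgcs1: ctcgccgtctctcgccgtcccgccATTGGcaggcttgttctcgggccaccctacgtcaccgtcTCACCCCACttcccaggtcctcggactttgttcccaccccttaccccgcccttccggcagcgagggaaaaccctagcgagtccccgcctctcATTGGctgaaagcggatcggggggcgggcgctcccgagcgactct
Mvd: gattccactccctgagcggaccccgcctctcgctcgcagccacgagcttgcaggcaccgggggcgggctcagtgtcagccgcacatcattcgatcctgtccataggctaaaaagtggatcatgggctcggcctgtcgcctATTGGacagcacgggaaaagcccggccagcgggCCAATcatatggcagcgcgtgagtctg
Pmvk: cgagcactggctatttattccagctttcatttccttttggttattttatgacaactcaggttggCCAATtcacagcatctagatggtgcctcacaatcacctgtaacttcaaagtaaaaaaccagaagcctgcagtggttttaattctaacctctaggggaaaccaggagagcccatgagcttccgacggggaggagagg
Sc5d: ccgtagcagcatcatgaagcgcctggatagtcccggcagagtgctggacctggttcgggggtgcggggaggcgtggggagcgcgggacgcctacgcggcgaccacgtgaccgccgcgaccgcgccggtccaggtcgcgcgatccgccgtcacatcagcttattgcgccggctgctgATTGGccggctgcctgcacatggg
Of the 22 members searched, Hmgcs1 was the only one with an exact match to the sterol regulatory element in its 300-base window (250 bases before to 50 after the start). Such a match is held by 1.24% of all 32851 promoters in the table. The match in Hmgcs1 begins 137 bases before the start. The CCAAT box, bound by the factor NF-Y that often acts beside SREBPs, was present in 16 of 20 synthesis promoters and 3 of 5 transport promoters, against 37.4% of all promoters. The GC box GGGCGG, bound by Sp1, was in 16 of 20 synthesis and 4 of 5 transport promoters, against 35.7% of all, and the consensus DR4 element, to which LXRs bind, in 0 of 25 and in 5 promoters of the whole table. A match describes letters, not a bound site.

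Other genes of sterol metabolism, 36 that are no members, were examined as a fixed list of regulators, receptors, carriers and oxysterol enzymes. In F1, 2 of 34 tested were lower and 0 higher, against 1.02% and 0.142% of all genes. In F0, 0 of 36 were lower and 2 higher, against 1.32% and 1.18% of all genes. The median log2FC was −0.00 in F1 and 0.08 in F0. Insig1, which retains the SREBP machinery in the endoplasmic reticulum and is itself a target of SREBPs (ENSMUSG00000045294, chromosome 5 from 28071363 to 28078662 on the plus strand), stood at 543, 542 and 563 CPM in F1 CD and 343, 428 and 385 CPM in pLPD offspring. All pLPD mice were lower than all F1 CD mice (log2FC −0.51, standard error 0.10, adjusted p = 0.0385). In F0 its exon reads varied widely, with 539.5 and 318 CPM in CD-fed and 449 and 316 CPM in LPD-fed males (log2FC −0.16, standard error 0.24, adjusted p = 0.814), while its intron reads were higher in LPD-fed males (17.5 and 23.9 against 53.1 and 38.8 CPM, log2FC 1.15, standard error 0.19, adjusted p = 0.0113).

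Pltp, which transfers phospholipid between lipoproteins and remodels HDL (ENSMUSG00000017754, chromosome 2 from 164839518 to 164857711 on the minus strand), moved in both generations and in opposite directions. It stood at 101, 102 and 119 CPM in F1 CD and 70.5, 54.7 and 65.1 CPM in pLPD offspring, lower in all pLPD mice (log2FC −0.76, standard error 0.11, adjusted p = 0.0114). In F0 it stood at 114 and 90.5 CPM in CD-fed and 161 and 209 CPM in LPD-fed males, higher in both LPD mice (log2FC 0.86, standard error 0.15, adjusted p = 0.0241). The difference between generations passed (log2 difference −1.63, adjusted p = 0.00541), and its introns in F0 were higher as well (log2FC 0.83, adjusted p = 0.0256). Vldlr, a receptor for triglyceride-rich lipoproteins (ENSMUSG00000024924, chromosome 19 from 27216484 to 27254231 on the plus strand), was the other gene higher in LPD-fed males, at 134 and 126 CPM in CD-fed and 169 and 199.6 CPM in LPD-fed males (log2FC 0.51, standard error 0.11, adjusted p = 0.0464), and in F1 its groups overlapped (log2FC 0.29, adjusted p = 0.304). Gramd1b, which moves cholesterol from the plasma membrane to the endoplasmic reticulum (ENSMUSG00000040111, chromosome 9 from 40293233 to 40531383 on the minus strand), stood at 61.6, 65.1 and 79.6 CPM in F1 CD and 90.7, 97.4 and 94.8 CPM in pLPD offspring with all pLPD mice above all F1 CD mice, and did not pass (log2FC 0.46, standard error 0.10, adjusted p = 0.0628). Of these 4, Insig1 in F1 was lost in 5 of the 6 fits that left out 1 mouse, all but that without F1 CD replicate 3, and Vldlr in F0 in 3 of 4, all but that without F0 LPD replicate 1. Pltp was lost in F1 without F1 CD replicate 1 or F1 LPD replicate 2, and in F0 without F0 CD replicate 2 or F0 LPD replicate 2.

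Fatty acid synthesis, which shares SREBP control and the acetyl-CoA supply, was summarised as 9 genes from Acly to Fads2. In F1, 8 of 9 had a negative log2FC, with a median of −0.65 beside −0.35 for the 21 sterol synthesis genes. Of the 9, 1 was called lower and 0 higher, against 1.02% and 0.142% of all genes. At an unadjusted p under 0.05, 8 were lower and 0 higher, against 8.76% and 6.57% of all genes. In F0, 7 of 9 were negative, with a median of −0.59 beside −0.23. Of the 9, 1 was called lower and 0 higher, against 1.32% and 1.18% of all genes. At an unadjusted p under 0.05, 4 were lower and 0 higher, against 8.2% and 7.53% of all genes. In F1, replicate 3 was again the F1 CD mouse with the smallest sum of these genes, 70526 CPM, against 99601 and 102413 CPM in the others and 60961 to 72624 CPM in pLPD offspring.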

How the data were processed

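Total RNA of whole iWAT was rRNA-depleted and sequenced as paired, directional libraries, and CLC Genomics Workbench was used by the authors for mapping (mm10). The deposited tables give, per gene and mouse, counts of total and unique exon reads and of intron reads, and RPKM values made by the authors. Their strand setting is not given in the sources used here. From the counts, edgeR 4.0.16 (R 4.3.3) quasi-likelihood tests were run (filterByExpr, TMM, Benjamini-Hochberg over all genes, two-sided, threshold 0.05), each generation alone. The difference between generations and the comparison of the CD groups came from a fit of all 4 groups. Standard errors are the log2FC over the square root of F. Levels are CPM scaled by TMM, and RPKM between genes. Libraries held 6351075 to 10044546 exon reads, so that 3 reads equal 0.299 to 0.472 CPM. An exact permutation test could not go below p = 0.1 (3 against 3) or 0.333 (2 against 2). Alternatives used DESeq2 1.42.0 and limma 3.58.1 and left out each mouse. Nothing in the labels gives father, litter or day, although the paper states that the F1 mice had different mothers. In F1 the diet was given to the fathers, and whether any offspring shared a father is not given. The p-values thus measure the spread between these mice, not between fathers.

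The members and lists were chosen with earlier results of these data known. Given per mouse were the members past the threshold, otherwise the 6 with the smallest p in each generation, and genes of the fixed pathway list that passed or came next. 1 further gene that the rule selects in F0 is not reported here. Exon overlaps are from GENCODE and promoters from RefSeq GRCm38.p6.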

Additional observations from a re-analysis of the deposited data

Results flagged for a closer look

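The diet effect on Abcg1 differed between generations, by −0.99 on the log2 scale (F1 minus F0, adjusted p = 0.0192, edgeR), with 0.06 in F1 and 1.05 in F0. The diet effect on Pltp differed as well, by −1.63 (adjusted p = 0.00541), with −0.76 in F1 and 0.86 in F0. Age, generation and library set cannot be told apart in either.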

How the results depend on the processing

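In F1, where 3 synthesis genes passed, DESeq2 called 7, the fit with no filter on low counts 8, and exon plus intron reads, limma-trend on log2 RPKM and the exon share covariate 0 each, and 0 to 9 were called with 1 mouse left out. The synthesis median was −0.0456 with the exon share covariate and −0.54 to −0.20 with 1 mouse left out. Transport in F1 gave 1 call by DESeq2, with no filter and with all 4 groups in 1 fit, and 0 to 1 with 1 mouse left out. Its median was −0.14 by limma-trend, which moved the median of all genes to −0.15, and −0.0517 to 0.11 with 1 mouse left out.

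In F0, the synthesis count of 1 (higher) became 5 with no filter and 5 with the replicate block, each 1 higher and 4 lower, 3 with the exon share covariate, 1 higher and 2 lower, and 0 with all 4 groups in 1 fit or limma-trend (0 to 2 with 1 mouse left out), while the 1 call of DESeq2 was lower. The synthesis median was −0.048 on exon plus intron reads and −0.28 to −0.0462 with 1 mouse left out. The transport count was 0 by limma-trend and 1 with 1 mouse left out, and its median −0.0468 by limma-trend and 0.0064 to 0.0433 with 1 mouse left out. For the difference between generations, 4 synthesis genes passed with no filter (0 to 3 with 1 mouse left out) and 2 transport genes by DESeq2 or with no filter (0 to 2). For the CD groups, 4 to 13 synthesis and 0 to 2 transport genes passed with 1 mouse left out. On F0 introns the replicate block gave 4 synthesis and 2 transport genes, the latter with Abcg1 (adjusted p = 0.0163), and 2 to 4 and 0 to 2 passed with 1 mouse left out. The sign turned for Hmgcs1 in F1 without F1 CD replicate 2 (0.0694) or F1 LPD replicate 2 (0.01), in a range of −0.38 to 0.0694 with 1 mouse left out, for Abcg1 in F1 by limma-trend (−0.0932) and with the exon share covariate (−0.0703), and for the Mvd difference between generations without F0 CD replicate 2 (0.16, in a range of −0.94 to 0.16). The cause was not tested. Over 51 results for single genes and 596 alternatives, 470 kept direction and side of the threshold, 43 came to pass it, 78 no longer passed and 5 turned.

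Same-numbered mice correlated in their deviations at 0.0736, 0.00903 and 0.0149 in F1, all under 0.1. Differently numbered F1 mice gave −0.0815 to 0.0658. In F0 the value was 0.0564, which both pairs must share with 2 mice a group. The numbers were not read as pairs. The replicate block gave 4 synthesis calls in F1 beside 3 without it. Depth limits the intron comparison of Mvd, Fdps and Sqle in F1, with 4 to 32, 18 to 35 and 28 to 70 intron reads per library.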
